A study of Mus musculus with 9 samples.

Results

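The leukemic state described here is the set of probe sets whose signal set leukemic cells from the marrow and leukemic cells grown from them apart from normal granulocyte-macrophage progenitors in the same direction. Probe sets were selected on their measured values. All 6 leukemic signals had to lie above, or all below, all 3 normal signals, and the mean log2 signal of both leukemic groups had to differ by at least 2-fold from the normal mean. Signals under 62.4, the 25th percentile of the table, were first set to that floor. Of 22626 probe sets, 357 met the rule, 164 higher in leukemic cells (0.725%) and 193 lower (0.853%). They named 258 of the 12393 genes on the array, 121 higher and 137 lower. Differences from normal cells therefore describe the choice and carry no test. The difference between the leukemic groups is not itself part of the rule, though both groups must lie on the same side of normal cells. It was tested across the 14578 probe sets that passed a filter on dim signals.

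The 9 mouse arrays form 3 groups of 3. GMP are normal granulocyte-macrophage progenitors of the bone marrow, the cells committed to making neutrophils and monocytes. L-GMP are cells resembling GMP sorted out of leukemic mouse marrow, and the leukemia comes from MLL-AF9, which joins parts of the Kmt2a (MLL) and Mllt3 (AF9) proteins. The arrays with the titles AKLG-1 to AKLG-3, called L-GMP-derived here, name L-GMP as their source and were read as the cells grown from L-GMP in culture, because the design names such a group and no other label fits it. All 9 samples are given as sorted hematopoietic cells. Strain, age, sex, culture medium, the vector or promoter behind MLL-AF9 and any agent that mice or cells received are details the labels do not state. No label ties the 3 arrays of a group to different mice or cultures, so the spread behind each p-value is that of these arrays and may be technical. The Kmt2a signals, 175, 177 and 184 in GMP, 198, 176 and 188 in L-GMP and 174, 145 and 158 in L-GMP-derived cells, overlapped between GMP and L-GMP and lay just below both in L-GMP-derived cells, and the stretch of the transcript read by this probe set is unknown here.

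Signals are the deposited linear intensities, of which some dim ones are negative. Folds are ratios of geometric means (differences of mean log2 signals after flooring), which can differ from ratios of arithmetic means. "At least" marks a fold whose lower group had 1 or more arrays at the floor, since lower values there would make it larger. Within a group, arrays correlated across probe sets at 0.982 to 0.991 in GMP, 0.977 to 0.983 in L-GMP and 0.958 to 0.989 in L-GMP-derived cells, where replicate 1 stood apart from the other two. Summed over the 7 genes of a GMP identity list (Kit, Cd34, Fcgr3, Mpo, Elane, Prtn3 and Ctsg), signals ranged from 33398 to 34147 in GMP, 24492 to 31636 in L-GMP and 22950 to 27374 in L-GMP-derived cells, and no gene of the list lay under the floor on all arrays. The sum does not stand for each gene. Kit read 861, 778 and 809 in GMP, 614, 587 and 771 in L-GMP and 110, 105 and 67.0 in L-GMP-derived cells. The 3' over middle signal ratio of the beta-actin controls, which tracks RNA integrity, ranged from 3.70 to 4.78 in GMP, 2.0 to 2.57 in L-GMP and 2.86 to 3.19 in L-GMP-derived cells. It thus separated GMP from both leukemic groups as the rule does, as did the same ratio of Gapdh (2.06 to 2.24, 1.80 to 1.90 and 1.74 to 2.01). The 3' over 5' ratios did not. For Gapdh they overlapped between all groups (7.08 to 8.77, 6.17 to 11.6 and 5.86 to 9.22). For beta-actin L-GMP was lower (4.87 to 5.56), while GMP (6.99 to 8.12) and L-GMP-derived cells (6.93 to 7.18) overlapped. The part of RNA integrity in the selection was not tested.

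MLL fusion proteins act on chromatin and keep genes of early progenitors switched on, above all the later HoxA genes and the gene of their DNA-binding partner Meis1. In normal myelopoiesis these genes are shut off as progenitors mature. A GMP that carries such a fusion can renew itself, in the marrow of a mouse and in a dish, where a normal GMP only matures.

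The higher probe sets were mostly close to the threshold. The smaller of their 2 differences from GMP had a median of 2.63-fold. It reached 4-fold at 33 of 164 and 8-fold at 6. Those 6 were the probe sets of Hpgd, Mylk, Mycn, Ampd3 and Pbx3 and one without a listed gene. At 25 of the 164, all 3 GMP signals lay under the floor, and at 118 none did. The lower probe sets lay farther out, with a median of 3.14-fold, 60 of 193 at 4-fold or more and 19 at 8-fold or more. At 40 of them all 6 leukemic signals lay under the floor. Non-overlap alone, without a minimum fold, was met by 1530 probe sets upward (6.76%) and 1391 downward (6.15%).

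**Figure D1:**
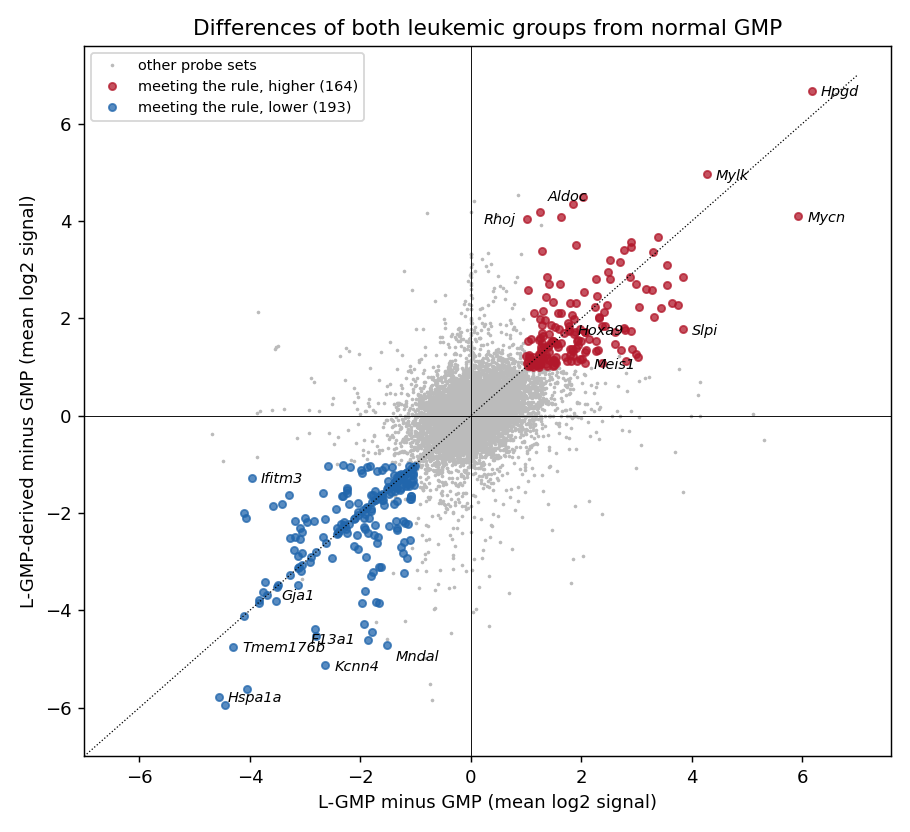
Mean log2 signal of L-GMP minus GMP (horizontal axis) against L-GMP-derived cells minus GMP (vertical axis) for all probe sets, with the 164 higher and 193 lower probe sets that met the rule in colour and the line of equal differences dotted. Both axes share the GMP arrays, so the cloud's tilt is no result; Hpgd stands alone at the upper right, and Rhoj and Aldoc lie far above the line of equal differences.

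Of the transcription factor genes, the HoxA genes and their cofactors gave the highest share of any list: 5 of 15 measured genes were higher in both leukemic groups (33.3%) and none lower, beside 258 of 12393 genes (2.08%) over the array. The list, like all others here, was written with earlier results of these data known. Hoxa9, a homeodomain factor that keeps progenitors immature, read 1394, 1745 and 1658 in GMP, 5617, 5312 and 5369 in L-GMP and 6003, 5108 and 5139 in L-GMP-derived cells. All 6 leukemic signals lay within a narrow band far above GMP, 3.41-fold higher in L-GMP and 3.39-fold in L-GMP-derived cells, and a second Hoxa9 probe set met the rule too. Hoxa5 read 274, 353 and 339 in GMP, 2565, 2609 and 2511 in L-GMP and 3237, 1622 and 1746 in L-GMP-derived cells. Its 3 L-GMP signals were nearly equal, while L-GMP-derived replicate 1 lay above and the other two below them. Hoxa10, of the same cluster, was under the floor in GMP (21.2, 24.2 and 21.8) and at 274, 229 and 205 in L-GMP and 276, 359.6 and 303 in L-GMP-derived cells.

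Meis1 and Pbx3 encode the partners with which Hox proteins bind DNA. Meis1 read 471, 499.9 and 544 in GMP, 2284, 2108 and 1933 in L-GMP and 1271, 1009 and 928 in L-GMP-derived cells. Its leukemic signals formed 2 steps above GMP, and the culture-derived group was the nearer. Meis1 was 4.17-fold higher in L-GMP and 2.10-fold in L-GMP-derived cells. Without L-GMP-derived replicate 1 the latter was 1.92-fold, under the rule's limit. Pbx3 read 35.6, 52.2 and 47.1 in GMP, 678, 799 and 733 in L-GMP and 475, 644 and 496 in L-GMP-derived cells. It was under the floor on all GMP arrays and clearly measured on all 6 leukemic ones.

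Mycn, a factor of the Myc family that drives growth, read 30.3, 5.85 and 3.58 in GMP, 5772, 4182 and 2286 in L-GMP and 2681, 630.2 and 726 in L-GMP-derived cells and was at least 61.0-fold higher in L-GMP and at least 17.1-fold in L-GMP-derived cells. Its leukemic signals spanned a wide range in both groups, with the other two Mycn probe sets near or under the floor on all 9 arrays, and without L-GMP-derived replicate 1 the second fold was at least 10.8. Id1, which blocks the basic helix-loop-helix factors of differentiation, read 60.1, 65.1 and 65.6 in GMP, 282, 245 and 205 in L-GMP and 566, 906 and 774 in L-GMP-derived cells. It was at or barely above the floor in GMP, with replicate 1 under it, and stepped up from L-GMP to L-GMP-derived cells. Igf2bp3, an RNA-binding protein of fetal tissue, was the 1 higher gene of 24 measured MLL fusion targets outside the Hox clusters, at 64.1, 66.6 and 65.1 in GMP, 603, 534 and 637 in L-GMP and 485, 365 and 349.7 in L-GMP-derived cells.

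On the list of myeloid and stem cell transcription factors 6 of 38 were lower (Tal1, Hlf, Klf4, Zfpm1, Mitf and Sox4) and 2 higher (Mycn and Id1). On the list of stem cell markers, which shares genes with it, 3 of 22 were lower (Hlf, Tal1 and Hmga2) and 2 higher (Meis1 and Mycn). In both directions together these are 21.1% and 22.7% of the 2 lists, beside 2.08% of all genes. Klf4, a factor of monocyte differentiation, read 861, 1895 and 1652 in GMP, 234, 116 and 278 in L-GMP and 75.4, 24.0 and 36.6 in L-GMP-derived cells. GMP replicate 1 was the lowest of its group but still well above the highest leukemic array. Hlf, a factor of stem cells, read 257, 222 and 254 in GMP and no more than 87.1 on any leukemic array. Tal1, needed for blood stem cells and the erythroid line, read 149, 149 and 195 in GMP and was under the floor on all 6 leukemic arrays.

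Bcl11a, a factor of lymphoid and dendritic development, read 551, 556 and 529 in GMP, 45.4, 30.3 and 35.0 in L-GMP and 20.05, 32.0 and 15.8 in L-GMP-derived cells. It was also on the list of MLL fusion targets, where 3 genes were lower: Bcl11a, Nrip1 and Hmga2. With Igf2bp3 these are 16.7% of that list, beside 2.08% of all genes. Hmga2, a chromatin protein of fetal stem cells, read 379, 664 and 638 in GMP, 139.6, 119 and 135 in L-GMP and 119.6, 95.5 and 85.01 in L-GMP-derived cells, and all 3 of its probe sets met the rule. Dnmt3b, a DNA methyltransferase, was 3.799-fold lower in L-GMP and 4.29-fold in L-GMP-derived cells, at 1524, 1849.7 and 1937 in GMP, 494, 438 and 461 in L-GMP and 384, 459.9 and 391 in L-GMP-derived cells. Chd7, a chromatin remodeler, went the other way at 170.1, 142 and 173 in GMP, 535, 419.7 and 384 in L-GMP and 500.1, 698 and 581 in L-GMP-derived cells.

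**Figure D2:**
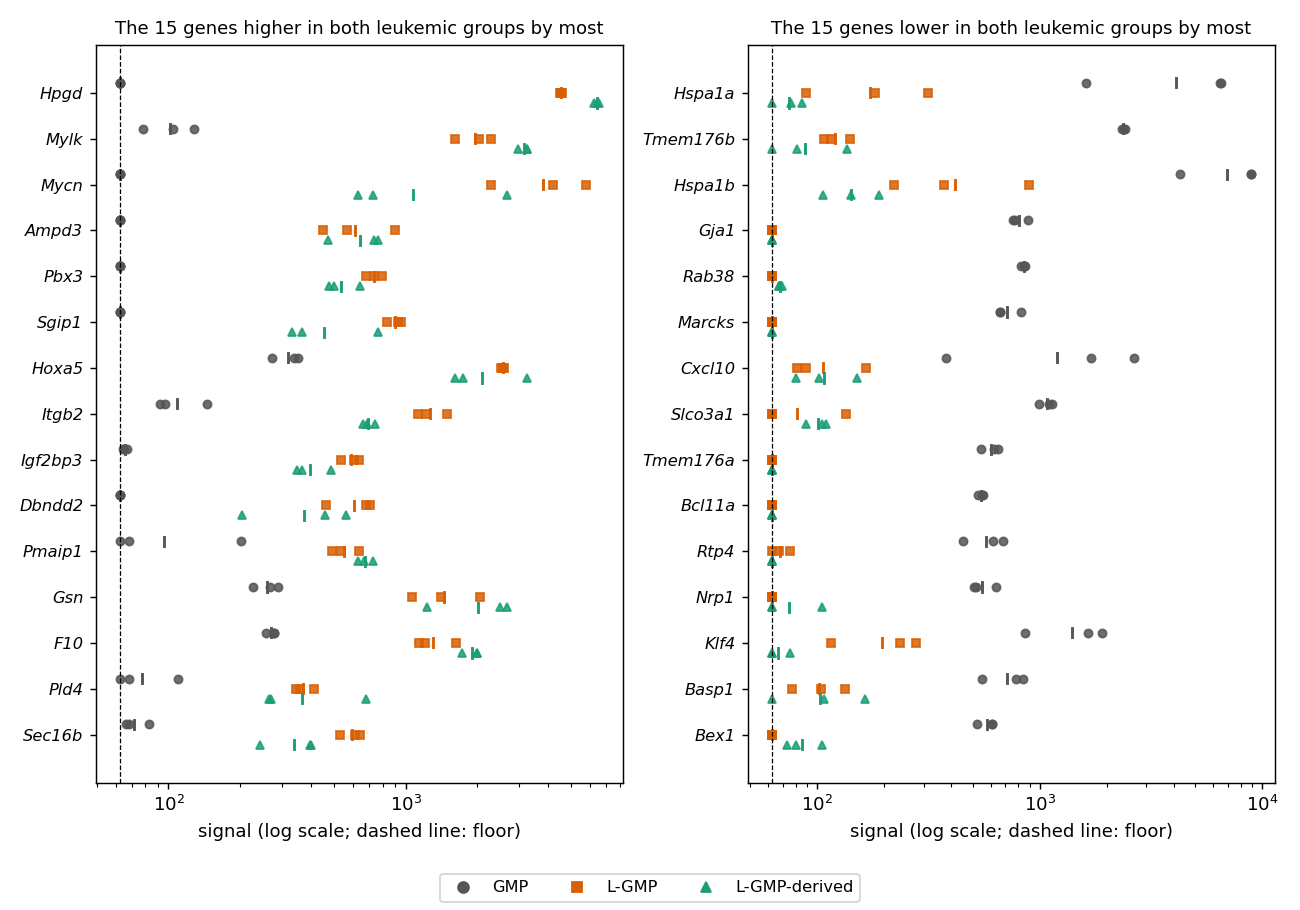
Signal on each of the 9 arrays (log scale, signals under the dashed floor drawn at the floor) for the 15 genes higher and the 15 lower in both leukemic groups by the largest smaller difference, with vertical ticks at the mean log2 signal of each group. Hpgd, Mycn, Ampd3, Pbx3 and Sgip1 lie at the floor in GMP, while Gja1, Marcks, Tmem176a and Bcl11a lie there on all 6 leukemic arrays.

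Genes of prostaglandin E2, a lipid signal that acts on blood stem cells and macrophages, met the rule for both its removal and its reception. Hpgd, the dehydrogenase that begins the breakdown of prostaglandins, read 23.6, 23.4 and 15.2 in GMP, 4483, 4553 and 4516 in L-GMP and 6239, 6528 and 6435 in L-GMP-derived cells. It was under the floor in all GMP arrays and steady within each leukemic group, at least 72.3-fold higher in L-GMP and at least 102-fold in L-GMP-derived cells. Its second probe set met the rule as well. The first can bind related transcripts by its design.

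Of the receptors for prostaglandin E2, 3 had a lower probe set that met the rule. These were 1 of 1 for Ptger2 and 1 of 2 each for Ptger4 and Ptger3. Ptger4 read 1020.4, 869.9 and 813 in GMP, 194, 48.6 and 66.1 in L-GMP and 47.3, 272 and 231 in L-GMP-derived cells. L-GMP replicate 1 and L-GMP-derived replicates 2 and 3 kept a measurable signal, well under GMP. The fold of L-GMP-derived cells was at least 5.69-fold, and 3.58 without replicate 1. Ptger2 read 394, 337 and 409 in GMP, 212, 122 and 133 in L-GMP and 52.5, 66.0 and 99.6 in L-GMP-derived cells. For Ptger3 1 of 2 probe sets met the rule, at 238, 317 and 365 in GMP, 17.8, 10.7 and 12.9 in L-GMP and 12.3, 28.3 and 6.12 in L-GMP-derived cells, while the other, of higher mean signal, read 334, 277 and 369 in GMP, 290.4, 282 and 284 in L-GMP and 289, 385 and 279.9 in L-GMP-derived cells and overlapped between groups. On the list of eicosanoid and lipid mediator genes, Hpgd and these receptors were the 4 genes of 31 measured that met the rule (12.9%, beside 2.08% of all genes).

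The D-type cyclins, which link growth signals to the cell cycle, went in both directions. Ccnd2 read 2303, 2533 and 2537 in GMP, 193, 132 and 121 in L-GMP and 169.9, 1104 and 1009 in L-GMP-derived cells. L-GMP-derived replicate 1 lay with L-GMP, and replicates 2 and 3 lay between L-GMP and GMP. The fold of the culture-derived group was thus 4.28-fold, or 2.33 without replicate 1. All 5 Ccnd2 probe sets that met the rule showed this order, and the 2 others were dim. Ccnd1 was near or under the floor on the leukemic arrays at 2 of 3 probe sets, one of which read 265, 328 and 361 in GMP, 74.0, 54.6 and 41.9 in L-GMP and 9.59, 4.71 and 0.595 in L-GMP-derived cells. Ccnd3 read 148, 249.1 and 277 in GMP, 638, 449.9 and 497 in L-GMP and 581, 469 and 479 in L-GMP-derived cells and was 2.41-fold higher in L-GMP and 2.34-fold in L-GMP-derived cells. Without GMP replicate 1, the lowest of its group, both folds fell under the limit, to 1.99 and 1.93. No other of the 39 measured cell cycle genes met the rule, so that 7.69% did, beside 2.08% of all genes.

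**Figure D3:**
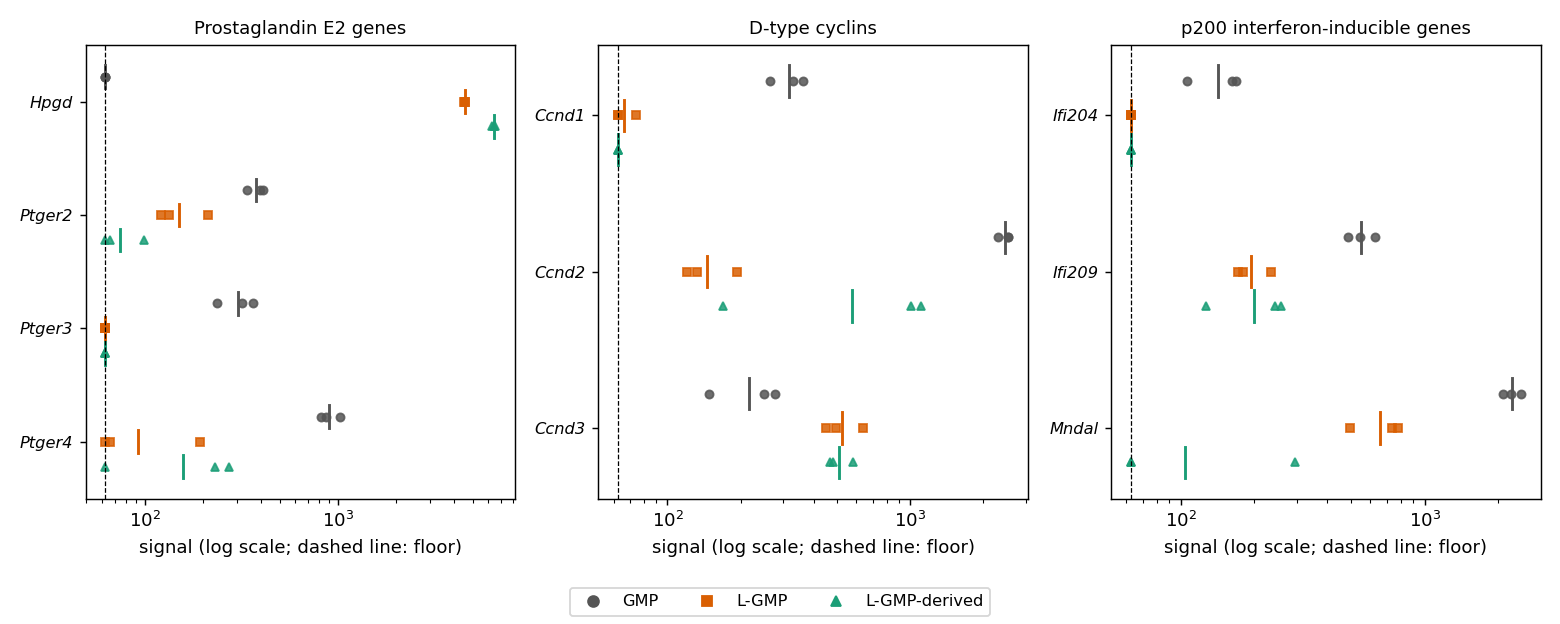
Signal on each array (log scale, floor dashed) for the prostaglandin E2 genes, the D-type cyclins and the p200 genes, using for each gene the probe set with the largest smaller difference among those that met the rule, with vertical ticks at the mean log2 signal of each group. Hpgd and Ccnd3 are higher in leukemic cells, and the other 8 genes are lower.

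The inducible Hsp70 genes Hspa1a and Hspa1b, chaperones switched on by heat and other stress, were lower in leukemic cells, and the smaller difference of Hspa1a was the largest of all lower probe sets. Hspa1a read 1615, 6518 and 6423 in GMP, 315, 89.1 and 182 in L-GMP and 16.7, 76.4 and 85.5 in L-GMP-derived cells. GMP replicate 1 lay far under the other GMP arrays and still far above the highest leukemic array. Hspa1a was 23.6-fold lower in L-GMP and at least 54.9-fold in L-GMP-derived cells. Without GMP replicate 1 these folds were 37.6 and at least 87.2. Hspa1b read 4251, 8880.1 and 8858 in GMP, 891, 221 and 370.1 in L-GMP and 106, 189 and 141 in L-GMP-derived cells, with GMP replicate 1 again the lowest of its group, and all 3 of its probe sets met the rule. Signals of this near-identical pair may not be separable. A dim probe set of Hspa8, the constitutive member of the family, read 202, 889 and 748 in GMP, 96.9, 84.0 and 123 in L-GMP and 111, 135 and 88.1 in L-GMP-derived cells, with the same low GMP replicate 1. The 3 brighter Hspa8 probe sets did not meet the rule. These were the 3 genes of 26 measured heat shock genes and chaperones that met it (11.5%, beside 2.08% of all genes).

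The promoters of the pair are shown because the members lay on the same side of GMP and share their upstream sequence. RefSeq (GRCm38.p6) places both genes side by side on the minus strand of chromosome 17. The 150 bases before each start, at chr17:34972157-34972306 for Hspa1a and chr17:34959239-34959388 for Hspa1b, are given 5′ to 3′, with a match to GAANNTTC, the letters of paired heat shock factor binding units, in capitals 104 bases before the start.
Hspa1a: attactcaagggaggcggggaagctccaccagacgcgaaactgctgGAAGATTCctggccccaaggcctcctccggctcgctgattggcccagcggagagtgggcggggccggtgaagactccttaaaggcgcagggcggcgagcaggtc
Hspa1b: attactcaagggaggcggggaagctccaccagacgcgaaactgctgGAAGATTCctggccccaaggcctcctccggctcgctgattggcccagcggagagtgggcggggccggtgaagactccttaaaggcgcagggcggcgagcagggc
Of these 150 bases 1 differed between the genes, and 3 of the 250 before each start.

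Tmem176b and Tmem176a, a pair of membrane proteins of dendritic cells and macrophages, were lower together. Tmem176b read 2389, 2402 and 2334 in GMP, 108, 115 and 141 in L-GMP and 136, 81.0 and 60.2 in L-GMP-derived cells. The GMP signals lay within a narrow range, and all leukemic ones were near or under the floor. Tmem176a read 545, 624 and 651 in GMP and was under the floor on all 6 leukemic arrays, while its dimmer second probe set did not meet the rule. The starts of the genes lie back to back on chromosome 6, which is why the sequence between them is shown. These 108 bases, at chr6:48841375-48841482 in GRCm38.p6, are given 5′ to 3′ on the plus strand.
Tmem176b to Tmem176a: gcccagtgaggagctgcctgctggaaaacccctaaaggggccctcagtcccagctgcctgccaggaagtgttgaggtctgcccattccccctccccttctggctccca
The stretch holds 0 matches to GAANNTTC and 0 CpG.

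Of 42 measured interferon response genes 5 were lower and 1 higher, beside 137 and 121 of 12393 genes over the array, and the difference in direction was not tested. Cxcl10, a chemokine that draws T cells, read 377, 2643 and 1694 in GMP, 165, 89.3 and 80.9 in L-GMP and 150.1, 80.5 and 101 in L-GMP-derived cells. GMP replicate 1 was again far under the other GMP arrays and still above every leukemic one. Cxcl10 was 11.2-fold lower in L-GMP and 11.1-fold in L-GMP-derived cells, and 19.96-fold and 19.8-fold without that array. Ifitm3, a membrane protein that restricts virus entry, read 2202, 2121 and 1889.5 in GMP, 182, 101 and 125 in L-GMP and 955, 844 and 774 in L-GMP-derived cells. It was lower in all leukemic arrays, but the culture-derived cells kept far more signal than L-GMP. Rtp4, which is induced by interferon but not on the list, read 452, 615 and 683 in GMP and did not exceed 75.2 on any leukemic array. Slfn4, of a growth-regulating family of similar genes, was the higher one, at 209, 106 and 138 in GMP, 1149, 289 and 629.8 in L-GMP and 4440.1, 2615 and 3016 in L-GMP-derived cells.

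The interferon-inducible p200 genes, sensors of nucleic acid that lie in one cluster on chromosome 1, were lower at Mndal, Ifi209 and Ifi204. Mndal read 3188, 3514 and 3609 in GMP, 881, 1319 and 1469 in L-GMP and 584, 24.4 and 33.0 in L-GMP-derived cells. L-GMP signals lay well under GMP and those of L-GMP-derived replicates 2 and 3 under the floor, and without replicate 1 the fold of that group was at least 55.0 in place of at least 26.1-fold. Ifi209 read 2933, 2777 and 2922 in GMP, 1139.8, 1597 and 1516 in L-GMP and 965, 1135 and 1133 in L-GMP-derived cells, and both of its probe sets met the rule. Ifi204 was dim, at 163, 106 and 169 in GMP and under the floor on all leukemic arrays. Such family members can share probe binding. Of the MHC genes H2-Aa, an MHC class II chain, was lower (407, 427 and 396 in GMP, 84.7, 83.1 and 62.9 in L-GMP and 17.3, 97.0 and 94.4 in L-GMP-derived cells), and Tap2, a peptide transporter of class I, was higher at 182, 295 and 299.5 in GMP, 466, 493 and 580.4 in L-GMP and 881, 415 and 425 in L-GMP-derived cells. Tap2 was near the limit and fell under it without GMP replicate 1 (1.72 and 1.81-fold), L-GMP replicate 3 (1.90 in L-GMP) or L-GMP-derived replicate 1 (1.66 in that group).

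Of 49 measured actin and myosin regulators 2 were higher (Mylk and Gsn) and 1 lower (Cnn3), of 33 leukocyte adhesion and homing genes 2 higher (Itgb2 and Itgb5) and 1 lower (Ccr2), and of 29 cell junction and epithelial genes 1 higher (Tjp3) and 1 lower (Gja1). These are 6.12%, 9.09% and 6.90%, beside 2.08% of all genes. Mylk, the kinase that activates myosin II, read 77.8, 104 and 128 in GMP, 2034, 2280.3 and 1611 in L-GMP and 3257, 3238 and 2963 in L-GMP-derived cells. It was close to the floor in GMP and 19.3-fold higher in L-GMP and 31.1-fold in L-GMP-derived cells. Gsn (gelsolin), which severs actin filaments, met the rule at 5 of 6 probe sets, and the brightest read 290.0, 226 and 269 in GMP, 2064, 1408 and 1059 in L-GMP and 1231, 2494 and 2673 in L-GMP-derived cells. Its leukemic groups overlapped one another and lay clear of GMP. Itgb2, the beta chain of the leukocyte integrins, read 145, 96.5 and 92.3 in GMP, 1495, 1221 and 1127 in L-GMP and 743, 689 and 661 in L-GMP-derived cells, and all 4 probe sets of Itgb5, an integrin chain that binds vitronectin, were higher, the brightest 2.91-fold higher in L-GMP and 2.82-fold in L-GMP-derived cells.

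On the lower side Gja1 (connexin 43), the channel of gap junctions, read 887, 770.4 and 759 in GMP, 6.25, 11.7 and 11.6 in L-GMP and 17.5, 34.5 and 35.4 in L-GMP-derived cells, and 5 of its 6 probe sets met the rule. Marcks, a membrane-bound actin regulator on none of these lists, as are Basp1 and Nrp1, read 659, 664 and 826 in GMP and was under the floor on all leukemic arrays. Cnn3, an actin-binding calponin, read 1160.2, 1425 and 1364 in GMP, 301, 197 and 360.4 in L-GMP and 669, 327 and 383 in L-GMP-derived cells, so that L-GMP-derived replicate 1 was the leukemic array nearest to GMP. Basp1, a membrane protein related to Marcks in function, read 552, 781 and 838 in GMP and did not exceed 163 on any leukemic array. Nrp1, a receptor for semaphorins and VEGF, was at least 8.79-fold lower in L-GMP and at least 7.39-fold in L-GMP-derived cells, and Tjp3, a protein of tight junctions, was at least 3.67-fold higher in L-GMP and at least 3.19-fold in L-GMP-derived cells.

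Rhoj was higher in both leukemic groups, while Rab38, a GTPase of vesicle transport, and Arhgap6, a GTPase-activating protein, were lower. Rhoj read 47.5, 59.7 and 69.6 in GMP, 189, 112 and 105 in L-GMP and 788, 1280.2 and 1213 in L-GMP-derived cells. The L-GMP signals lay a little above GMP and the L-GMP-derived signals far above both. L-GMP was at the limit of the rule and fell under it without L-GMP replicate 1 (at least 1.67-fold) or without GMP replicate 1 or 2 (at least 1.98-fold each). Rab38 read 851, 822 and 859 in GMP, 52.9, 52.7 and 55.1 in L-GMP and 69.4, 67.2 and 67.4 in L-GMP-derived cells, under the floor on 3 arrays and just above it on the other 3. Arhgap6 read 512, 512 and 606 in GMP, 59.3, 242 and 361 in L-GMP and 19.0, -3.07 and -11.1 in L-GMP-derived cells, and without L-GMP replicate 1 its L-GMP fold was 1.83.

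Genes of monocytes and macrophages were split, 3 higher and 3 lower of 49 measured (12.2%, beside 2.08% of all genes). Adgre1 (F4/80), the classical macrophage antigen, read 387, 361 and 376 in GMP, 3044, 3423 and 2749 in L-GMP and 402, 1253 and 1297 in L-GMP-derived cells. Replicate 1 of the culture-derived group exceeded the highest GMP array by little, and the fold of that group, 2.32-fold, was 1.93 without replicate 2 and 1.89 without replicate 3. Lgals3, a lectin of macrophages, read 489, 172 and 216 in GMP, 1970.3, 1706 and 808 in L-GMP and 603, 1462 and 1753 in L-GMP-derived cells, with GMP replicate 1 the highest normal array. F13a1, a clotting factor chain made by monocytes, read 4689, 4258 and 4045 in GMP, 1259, 1047 and 1283 in L-GMP and 318, 113 and 152 in L-GMP-derived cells. Ccr2, the receptor that brings monocytes out of the marrow, read 3791, 3442 and 3454 in GMP, 1437, 1423 and 1389 in L-GMP and 2363, 1011 and 859 in L-GMP-derived cells. Both were bright in GMP and still measured in leukemic cells. In such bulk samples, fewer cells of a type and less RNA per cell cannot be told apart. Over the 49 genes the summed signal ranged from 46087 to 47753 in GMP, 46688 to 49489 in L-GMP and 27458 to 28421 in L-GMP-derived cells, with Mrc1 and Fcgr1 under the floor on all arrays, and the part of such cells in these differences was not tested.

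Secreted proteins were also split, 4 higher and 3 lower of 50 (14.0%, beside 2.08% of all genes). Slpi, an inhibitor of neutrophil proteases, read 571, 422 and 388 in GMP, 6087, 6409 and 7007 in L-GMP and 1064, 1821 and 1923 in L-GMP-derived cells. The L-GMP signals lay far above the culture-derived ones, and these above GMP. F10 (coagulation factor X) was higher at all 3 probe sets, the brightest reading 259, 277 and 279.7 in GMP, 1625, 1142 and 1210.3 in L-GMP and 1996, 1733 and 1994 in L-GMP-derived cells. Cfp (properdin), a positive regulator of complement, read 86.0, 34.4 and 57.1 in GMP, 1012, 787 and 544 in L-GMP and 435, 295 and 264 in L-GMP-derived cells. Apoe, a lipid carrier of macrophages, read 267, 246 and 253 in GMP, 79.5, 37.3 and 47.1 in L-GMP and 41.8, 29.7 and -5.56 in L-GMP-derived cells and was lower, while Apoc2 near it on chromosome 7 was higher. Tgfbi, an extracellular matrix protein that was not on the list, met the rule at 3 of 4 probe sets, and the brightest read 1234, 1142 and 1244 in GMP, 562, 455 and 218 in L-GMP and 153, 55.3 and 46.6 in L-GMP-derived cells.

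Among receptors, channels and carriers, Csf2rb2, a beta chain of the IL-3 receptor, was the 1 higher of 39 cytokine and growth factor receptors, at 134, 146 and 160.4 in GMP, 529.7, 433 and 371 in L-GMP and 443, 585 and 485 in L-GMP-derived cells. The leukemic groups overlapped one another and lay clear of GMP. Il6st, the shared chain of IL-6 type receptors, was lower at 1 of 3 probe sets only. With Csf2rb2 it made up 5.13% of that list, beside 2.08% of all genes. Cd27, a TNF receptor of lymphocytes and early progenitors and the 1 gene of 19 gate antigens that met the rule (5.26%), read 198, 211 and 165 in GMP and was under the floor on all leukemic arrays. Kcnn4, a calcium-activated potassium channel, read 1727, 2525 and 2394 in GMP, 360.1, 316 and 386 in L-GMP and 4.04, -161 and -121 in L-GMP-derived cells. It was lower in L-GMP and under the floor in L-GMP-derived cells. Gpr65, a receptor for acid pH, was 4.93-fold lower in L-GMP and at least 4.55-fold in L-GMP-derived cells, and P2rx1, a channel opened by ATP, was 4.0-fold higher in L-GMP and 2.89-fold in L-GMP-derived cells.

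The organic anion carrier Slco3a1 met the rule at all 3 probe sets, and the brightest read 990.1, 1128 and 1103 in GMP, 134, 45.5 and 25.5 in L-GMP and 105, 109 and 88.6 in L-GMP-derived cells. Slc12a2, a sodium, potassium and chloride carrier, met the rule at 1 of 3 probe sets. That probe set read 279.5, 238 and 291 in GMP and was under the floor on all leukemic arrays. Slc1a3, a glutamate carrier, went from under the floor in GMP (28.1, 26.9 and 26.2) to 173, 251 and 191 in L-GMP and 294, 147 and 195 in L-GMP-derived cells. Spns2, which exports sphingosine 1-phosphate, read 878, 980.1 and 1069 in GMP, 227, 332 and 205 in L-GMP and 62.5, 65.3 and 76.2 in L-GMP-derived cells. The solute carriers that met the rule were 4 of 273, 2 higher and 2 lower (1.47%, beside 2.08% of all genes).

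Of the metabolic lists, glycolysis and hypoxia had 3 higher genes and 1 lower of 34 measured, antioxidant and detoxification genes 2 higher of 43, and sterol and fatty acid synthesis 1 higher of 32. The share of the first was 11.8%, beside 2.08% of all genes. Those of the last 2, 4.65% and 3.13%, rest on 2 genes and 1 gene and lie near that 2.08%. Ampd3, an AMP deaminase of blood cells, was on none of these lists. It read 37.8, -7.82 and 8.86 in GMP, 906, 567 and 448 in L-GMP and 470.5, 737 and 767 in L-GMP-derived cells. Aldoc, an aldolase of glycolysis, read 29.4, 26.8 and 29.2 in GMP, 239, 205 and 67.9 in L-GMP and 643, 1262 and 1839 in L-GMP-derived cells. L-GMP replicate 3 was just above the floor, and without L-GMP replicate 1 the L-GMP fold was at least 1.89, under the limit. Fdps, of the sterol pathway, read 81.6, 78.5 and 95.6 in GMP, 235, 216 and 230.0 in L-GMP and 560.1, 551 and 547 in L-GMP-derived cells, a middle step in L-GMP and a higher one in L-GMP-derived cells. Gpx3, a glutathione peroxidase, was 3.43-fold higher in L-GMP and 3.33-fold in L-GMP-derived cells, and Aldh3b1, an aldehyde dehydrogenase, at least 7.53-fold higher in L-GMP and at least 2.59-fold in L-GMP-derived cells. Ldhb, a lactate dehydrogenase, was the lower gene of the glycolysis list.

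Pmaip1 (Noxa), a p53 target that promotes cell death, read 43.4, 203 and 68.4 in GMP, 637, 534 and 487 in L-GMP and 629, 728 and 664 in L-GMP-derived cells. GMP replicate 2 was well above the other normal arrays and under all leukemic ones. Sesn2, another p53 target and a brake on mTORC1, met the rule at the dimmer of 2 probe sets and not at the brighter. Cyba, a subunit of the phagocyte oxidase, read 685, 603 and 644 in GMP, 3740.5, 3071 and 2938 in L-GMP and 2468, 2715 and 2685 in L-GMP-derived cells and was the 1 gene of 28 on the list of neutrophil granules that met the rule. That gene is 3.57% of the list, near the 2.08% of all genes. That list's summed signal ranged from 51418 to 69144 in GMP, 62177 to 99616 in L-GMP and 40566 to 44845 in L-GMP-derived cells.

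At 2.08% of all genes, a list of this size holds few or no such genes in any case, so the following zeros are given for completeness. No gene met the rule in either direction in the 37 Myc targets and ribosome biogenesis genes, the 45 cytosolic ribosomal proteins, the 24 annexins and S100 proteins, and the markers of B cells (15), dendritic cells (14), erythroid cells and megakaryocytes (19), mast cells, eosinophils and basophils (19) and stromal and endothelial cells (19). Of the 21 T and NK cell markers, Gzmb (granzyme B) was lower. Summed signals of the mast cell, eosinophil and basophil markers ranged from 6708 to 6967 in GMP, 10982 to 14498 in L-GMP and 2948 to 3883 in L-GMP-derived cells, on opposite sides of GMP, with Mcpt1 and Ccr3 under the floor on all arrays. Those of the stromal and endothelial markers, with Pecam1, Adipoq and Lum under the floor, were 8167 to 8454, 11511 to 12314 and 7241 to 7980. T and NK cell markers, with Cd8b1 under the floor, gave 5509 to 5917, 4622 to 4973 and 3332 to 3626, below GMP in both leukemic groups, and their part in the lower genes was not tested. Dendritic cell markers, with Cd209a under the floor, gave 5854 to 5961, 6524 to 9004 and 3728 to 5702, on opposite sides of GMP. B cell markers gave 3773 to 4002, 4019 to 4847 and 3484 to 4075. Erythroid and megakaryocyte markers, with Epb42, Ppbp and Vwf under the floor, gave 2961 to 3173, 2947 to 3134 and 2415 to 2521. The part of these cells was not tested either.

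**Figure D4:**
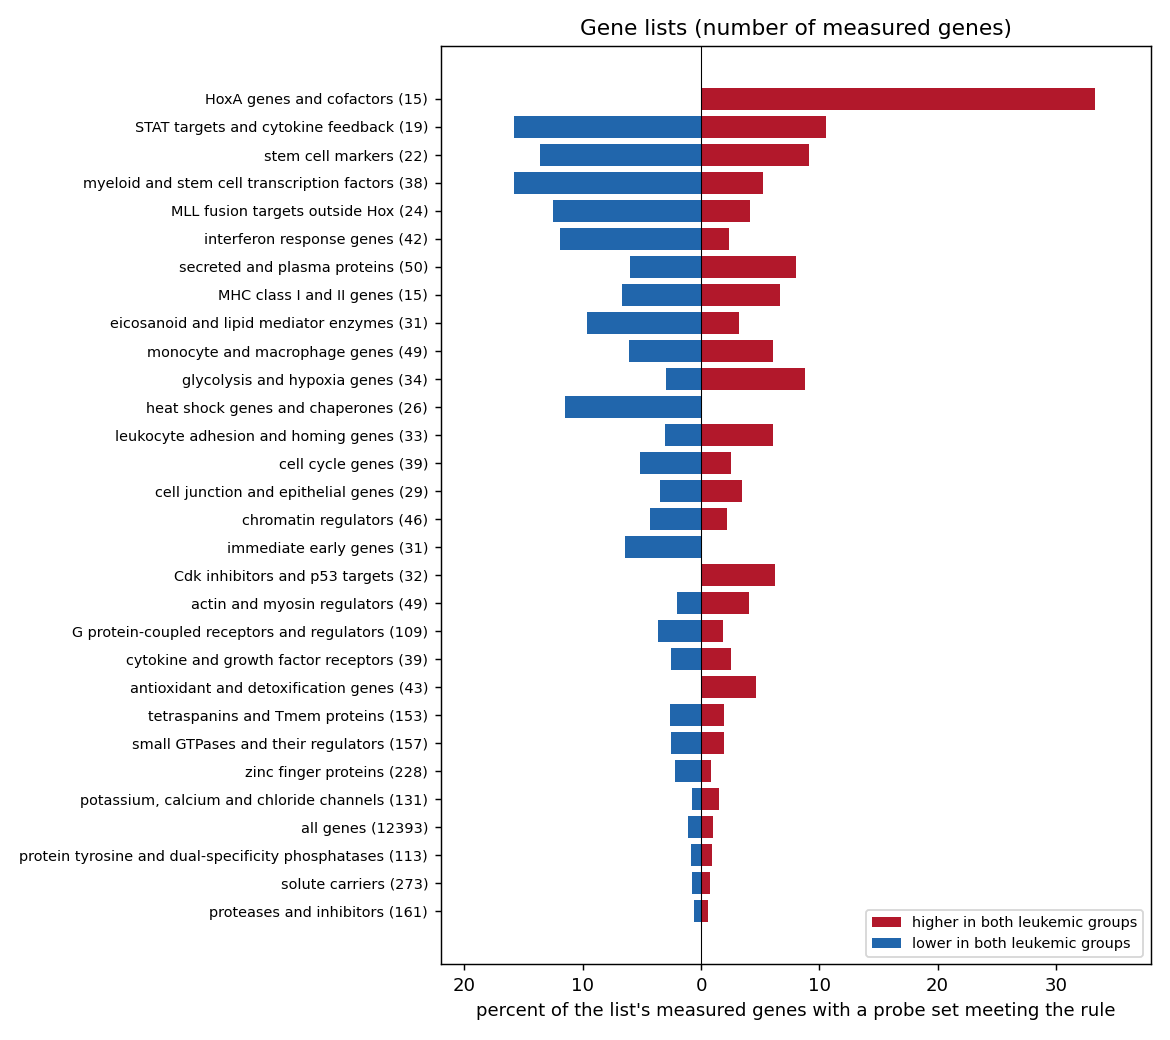
Percent of the measured genes of each list (number in brackets) with a probe set higher (right) or lower (left) in both leukemic groups, for lists with 2 or more such genes and for all genes. HoxA genes and cofactors stand at 33.3% on the higher side, and all genes together at 2.08% over both sides.

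Counting each gene once, by the probe set with its highest mean on the log2 scale, 99 genes were higher (0.799% of 12393) and 105 lower (0.847%). Of the 121 higher genes 63 had several probe sets. At the 89 of these that did not meet the rule, 56 lay on the same side of GMP in both leukemic groups and 6 on the opposite side. Of the 137 lower genes 87 had several, and the corresponding numbers were 121, 72 and 5. No gene had probe sets that met the rule in both directions. Among genes shown by 1 probe set, Slc12a2, Slc1a3, Ccr2, Arhgap6 and Neu1 met the rule at 1 of 3. Bcl11a, Hlf, Kcnn4, Aldoc, Fdps, H2-Aa, Rtp4, P2rx1, Mxi1 and Tspan13 met it at 1 of 2. Mylk and Nrp1 met it at 2 of 3, Igf2bp3 at 2 of 4, Marcks at 3 of 6 and Cnn3 at 5 of 6. Sequence designs that can bind related transcripts made up 33 of the 164 higher and 47 of the 193 lower probe sets. With each of the 9 arrays left out in turn, 279 of 357 probe sets met the rule every time, 118 of the higher and 161 of the lower ones.

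At the threshold, Ugp2, an enzyme of glycogen synthesis, was just inside on the higher side, with log2 differences of 1.12 and 1.01, as was a probe set without a listed gene (1.01 and 1.23). Edem1 (1.04 and 0.998) and Ostf1 (1.05 and 0.99) were just outside. On the lower side Sbk1 (-1.01 and -1.03) and Endod1 (-2.31 and -1.01) were just inside, and Papss1 (-0.998 and -1.07) and a probe set shared by histone H3 genes (-0.997 and -2.20) just outside.

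Whether the 2 leukemic groups differed at these probe sets was then tested between L-GMP-derived cells and L-GMP with limma. Of the 354 members that passed the filter on dim signals, 112 passed an adjusted p of 0.05 (31.6%), beside 4354 of all 14578 probe sets tested (29.9%). The share among members was thus near that of the array. At the 40 lower members with all 6 leukemic signals under the floor, flooring left no difference between the leukemic groups. These could not pass, and any that were tested met the filter through GMP alone. Some other lower members also met the filter through GMP alone, and calls among them are in the count of 112. Dmkn read 31.2, 26.0 and 39.5 in L-GMP and 93.7, 104 and 108 in L-GMP-derived cells (adjusted p = 9.86e-04, limma). Bex1 passed in the same way. The 2 shares therefore cannot be compared closely. Over the array 2384 probe sets were higher in L-GMP-derived cells (16.4%) and 1970 lower (13.5%); among members the counts were 42 and 70. Of the 164 higher members, 18 were higher still in L-GMP-derived cells and 35 nearer to GMP. Among the 190 lower members tested, 35 were lower still in L-GMP-derived cells and 24, Dmkn and Bex1 among them, nearer to GMP. Since all members lie on one side of GMP in both groups by choice, these counts describe distance from GMP within that choice. Differences of 2-fold or more between the leukemic groups were seen at 27 higher and 38 lower members, and of 4-fold or more at 7 and 10. Without L-GMP-derived replicate 1, which stood apart, 140 members passed (39.5%, beside 37.6% of all).

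Rhoj was the higher gene with the largest difference, 8.21-fold above L-GMP (log2 difference 3.04 ± 0.24 SE, adjusted p = 1.20e-05, limma). Aldoc followed (log2 difference 2.94 ± 0.46 SE, adjusted p = 8.96e-04), with L-GMP replicate 3 near the floor, then Slfn4 (log2 difference 2.46 ± 0.43 SE, adjusted p = 0.0018) and Id1 (log2 difference 1.604 ± 0.18 SE, adjusted p = 1.03e-04). In each of these 4 genes every L-GMP-derived signal lay above every L-GMP signal, farther from GMP. Ifitm3 (log2 difference 2.69 ± 0.19 SE, adjusted p = 7.05e-06) was likewise higher in all 3 L-GMP-derived arrays than in any L-GMP array, but nearer to GMP. Ccnd2 (log2 difference 1.98 ± 0.57 SE, adjusted p = 0.0236) overlapped between the leukemic groups through replicate 1 of the culture-derived cells. Its adjusted p rose to 0.0728 without L-GMP replicate 2, 0.0738 without L-GMP replicate 3, 0.0879 without L-GMP-derived replicate 2 and 0.0927 without L-GMP-derived replicate 3.

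On the side lower in L-GMP-derived cells, Mndal had the largest difference (at least 9.08-fold, log2 difference -3.18 ± 0.69 SE, adjusted p = 0.0057, limma). F13a1 (log2 difference -2.76 ± 0.30 SE, adjusted p = 8.73e-05) and Kcnn4 (log2 difference -2.50 ± 0.15 SE, adjusted p = 2.39e-06) followed, the latter with all L-GMP-derived arrays at the floor, so that its size is a lower bound. Tgfbi (log2 difference -2.18 ± 0.38 SE, adjusted p = 0.0018) and Spns2 (log2 difference -1.88 ± 0.18 SE, adjusted p = 3.80e-05) were lower in all 3 L-GMP-derived arrays too, so these 5 genes lay farther from GMP in culture. Slpi was 4.19-fold lower (log2 difference -2.07 ± 0.21 SE, adjusted p = 6.75e-05) and Adgre1 3.53-fold lower (log2 difference -1.82 ± 0.36 SE, adjusted p = 0.0036), both nearer to GMP in culture.

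**Figure D5:**
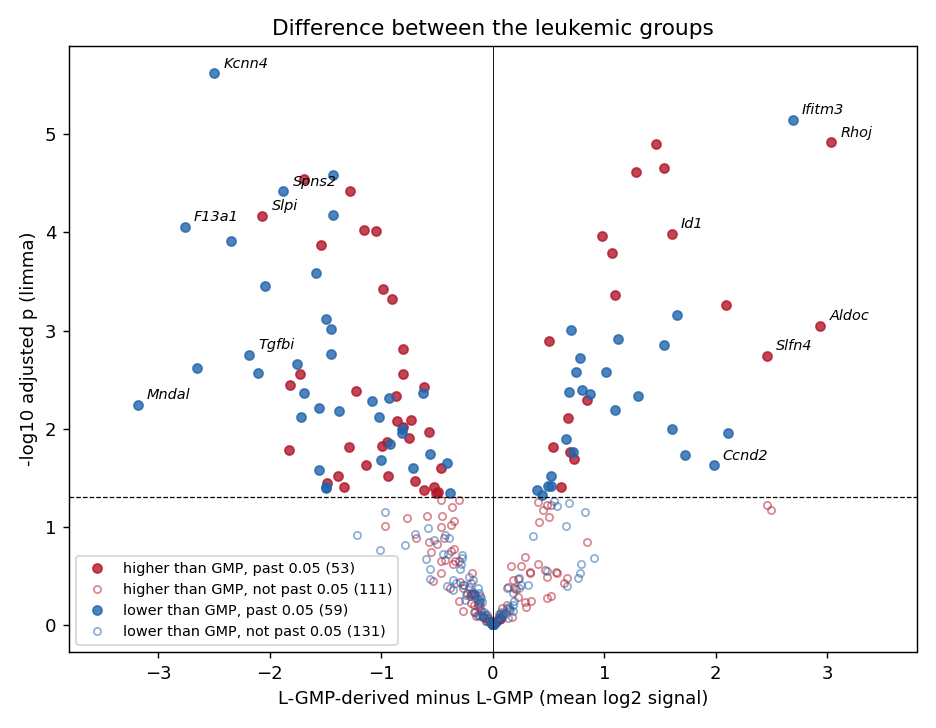
Difference in mean log2 signal between L-GMP-derived cells and L-GMP (horizontal axis) against -log10 of limma's adjusted p (vertical axis) for the 354 tested members, coloured by their side of GMP, with filled points past 0.05 above the dashed line. Rhoj, Aldoc and Slfn4 lie at the right among genes higher than GMP, and Mndal, F13a1 and Kcnn4 at the left among genes lower than GMP.

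For the HoxA genes, which were high in marrow and culture alike by choice, the interval of the difference between both bounds what these arrays resolve. Hoxa9 differed by -0.01 between L-GMP-derived cells and L-GMP (log2, 95% interval -0.21 to 0.19, adjusted p = 0.964, limma). For Hoxa5 the difference was -0.29 (-0.79 to 0.21, adjusted p = 0.371), and without L-GMP-derived replicate 1 it passed the threshold as lower in culture (-0.61, adjusted p = 0.00291). Hoxa10 differed by 0.41 (0.09 to 0.73, adjusted p = 0.0565) and passed as higher in culture without L-GMP replicate 1 (0.0288) or L-GMP-derived replicate 1 (0.0285). It also passed with the floor at the 40th percentile, with quantile normalization, without the intensity trend and with array weights. Meis1 was lower in culture (log2 difference -0.99 ± 0.13 SE, adjusted p = 3.79e-04), as was Pbx3 (log2 difference -0.46 ± 0.13 SE, adjusted p = 0.0251), which no longer passed without L-GMP replicate 2 (adjusted p = 0.0910), L-GMP replicate 3 (0.0612), L-GMP-derived replicate 1 (0.0544) or L-GMP-derived replicate 3 (0.0890).

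Mycn was lower in culture as well (log2 difference -1.83 ± 0.49 SE, adjusted p = 0.0166, limma), and did not pass without L-GMP replicate 1 (adjusted p = 0.0631), L-GMP replicate 2 (0.0564), L-GMP-derived replicate 2 (0.0642) or L-GMP-derived replicate 3 (0.0671). Hpgd was higher in culture by a small and steady margin (log2 difference 0.50 ± 0.08 SE, adjusted p = 0.0013), and Mylk by 0.69 (adjusted p = 0.0173), a call that ended without L-GMP replicate 3 (0.0674) or L-GMP-derived replicate 2 (0.0514). Hspa1b was lower in culture (log2 difference -1.56 ± 0.46 SE, adjusted p = 0.0265), and the call ended without L-GMP replicate 1 (0.0724), L-GMP replicate 3 (0.0533), L-GMP-derived replicate 1 (0.0566) or L-GMP-derived replicate 3 (0.0671). Hspa1a did not pass (log2 difference -1.22 ± 0.54 SE, adjusted p = 0.121, 95% interval -2.42 to -0.01). Ptger2 passed as lower in culture (log2 difference -1.02 ± 0.23 SE, adjusted p = 0.0076). For Ptger4 the difference was 0.76 (-0.44 to 1.97, adjusted p = 0.332), and it passed without L-GMP-derived replicate 1 (1.43, adjusted p = 0.0176).

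Some member genes are neighbours. Of 258 genes 257 could be placed in the order of protein-coding genes of RefSeq GRCm38.p6. Pairs with at most 2 such genes between them numbered 17, and 14 of these ran in the same direction. No such count over all genes is given. Related pairs such as Hspa1a and Hspa1b or Ifi204 and Mndal can share probe binding. The pairs in the same direction included Hoxa5, Hoxa9 and Hoxa10 on chromosome 6, Ifi209, Ifi204 and Mndal on chromosome 1, Bex4, Tceal8 and Bex1 on X, and the cathepsin inhibitor-like pair Ctla2a and Ctla2b on chromosome 13. In opposite directions ran Tap2 and H2-Aa, Neu1 and Hspa1b, and Apoc2 and Apoe. Neu1, a lysosomal sialidase, lies next to Hspa1b and was higher in leukemic cells, at 79.3, 45.7 and 48.7 in GMP, 318, 226 and 248 in L-GMP and 167, 187 and 204 in L-GMP-derived cells.

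Promoter windows from 250 bases before to 50 after the start were available in RefSeq GRCm38.p6 for 97 of the 121 higher genes (133 windows), 111 of the 137 lower genes (151) and 9887 of the 12393 genes on the array (12566). TGACAG, the core letters bound by Meis proteins, was found on either strand in 29.3% of windows of higher genes, 20.5% of lower genes and 17.6% of all. TGACTCA, bound by AP-1, was in 8.27%, 11.3% and 4.73%, and begins with the same 4 letters. The E-box CACGTG, bound by Myc proteins, was in 12.8%, 7.95% and 9.11%. CCAAT was in 36.8%, 29.1% and 37.1%, and TATAAA in 10.5%, 8.61% and 9.81%. The heat shock unit pairs GAANNTTC and TTCNNGAA, which can overlap, were in 9.02%, 8.61% and 6.15% and in 8.27%, 11.3% and 7.17%. The observed over expected CpG ratio of windows was 0.531, 0.601 and 0.685 at a GC content of 58.7%, 59.7% and 59.0%. Windows of one gene can overlap, a match is not a bound site, and these shares were not tested.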

How the data were processed

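RNA of 9 mouse samples was measured on Affymetrix arrays. The authors deposited 1 table of processed intensities on a linear scale, 22690 probe sets by 9 arrays. The submitters' processing notes list MAS5, version 5. How background, summary and scaling were handled is not known here. Of 204210 values 1917 (0.939%) are negative, down to -1890.55, which the MAS5 signal algorithm does not give, so the summary step is unknown. Arrays agreed in trimmed mean within 4.02%, and their scaling was kept. The table gives no counts, and the number of arrays limits the precision.

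Values under 62.4 (25th percentile) were set to it and log2 was taken, which understates the differences of dim genes. Leaving out 64 controls, 14578 probe sets above 111 (40th percentile) on at least 3 arrays were tested between the leukemic groups with limma 3.58.1 in R 4.3.3 (lmFit, contrasts.fit, eBayes with trend, all 9 arrays, 6 residual degrees of freedom, two-sided, Benjamini-Hochberg, threshold 0.05), after the script had been tested on simulated data. Differences from GMP were not tested, since the rule uses them.

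Symbols come from the platform annotation: 20393 probe sets had 1, 691 several and 1606 none. Of the 164 higher members 146 had 1 symbol, 2 several and 16 none; of the 193 lower, 175, 9 and 9. Each gene is represented by the probe set with its highest mean on the log2 scale. List counts and shares instead take in a gene if any of its probe sets met the rule. By the representing probe set alone, several of these counts are smaller. Glycolysis and hypoxia then had 2 higher and 0 lower genes, and cell cycle 1 and 1. Heat shock had 0 and 2, eicosanoid 1 and 2, secreted proteins 4 and 2, and MLL fusion targets 1 and 2. The HoxA list stayed at 5 and 0. The members and the gene lists were chosen with earlier results of these data known. Named are the 15 higher and 15 lower genes with the largest smaller difference, up to 4 of each list, the 6 higher and 6 lower between leukemic groups, 2 probe sets on each side of the threshold and 14 genes always. Other genes named, such as Ptger3, Ccnd1, Hspa8, Ifi204, Ifi209, Il6st, Sesn2, Ldhb and Neu1, were chosen after their values were seen. Replicate numbers do not pair the arrays: the deviations of same-numbered L-GMP and L-GMP-derived arrays correlated at -0.31, -0.13 and -0.27, and GMP replicate 1 carries no number in its label. A result on 1 further gene group is not reported here. Alternatives were floors, filter, scaling, fold, shared binding, variance model, weights, each array left out and a replicate block.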

Additional observations from a re-analysis of the deposited data

Results flagged for a closer look

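These named genes differed between the leukemic groups past limma's adjusted p of 0.05, so that their effect against GMP differed between marrow and culture. All values are log2 signal of L-GMP-derived cells minus L-GMP. No cause was tested.

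Among genes higher than GMP in both groups, those farther from GMP in culture were Rhoj (3.04), Aldoc (2.94), Slfn4 (2.46), Id1 (1.604), Fdps (1.28), Mylk (0.69), F10 (0.54) and Hpgd (0.50). Nearer to GMP in culture were Slpi (-2.07), Mycn (-1.83), Adgre1 (-1.82), Aldh3b1 (-1.54), the complement factor gene Cfp (-1.23), the endocytic adaptor gene Sgip1 (-0.99), Meis1 (-0.99), Itgb2 (-0.87), Sec16b (-0.81), Igf2bp3 (-0.58), the Myc antagonist gene Mxi1 (-0.52) and Pbx3 (-0.46). The call of F10 ended without L-GMP replicate 2 (adjusted p = 0.0684), L-GMP replicate 3 (0.0560) or L-GMP-derived replicate 3 (0.0578), that of Sgip1 without L-GMP-derived replicate 2 (0.0580) or 3 (0.0593), and that of Mxi1 without any of 5 leukemic arrays (0.0617 to 0.126), L-GMP-derived replicate 2 being the exception.

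Among genes lower than GMP in both groups, those farther from GMP in culture were Mndal (-3.18), F13a1 (-2.76), Kcnn4 (-2.50), Tgfbi (-2.18), Spns2 (-1.88), Hspa1b (-1.56), Klf4 (-1.56), Arhgap6 (-1.50) and Ptger2 (-1.02). Nearer to GMP were Ifitm3 (2.69), Ccnd2 (1.98), the tetraspanin gene Tspan13 (0.66) and Bex1 (0.44). Bex1 read 607, 519 and 610 in GMP, 42.6, 22.7 and 18.0 in L-GMP and 72.8, 104 and 80.5 in L-GMP-derived cells. It met the filter on dim signals through GMP alone. Its call sets floored L-GMP values against dim ones. The call of Arhgap6 ended without L-GMP replicate 2 (adjusted p = 0.137) or 3 (0.140) and without L-GMP-derived replicate 1 (0.0574), 2 (0.0899) or 3 (0.0940). That of Bex1 ended without any of 5 leukemic arrays (0.0760 to 0.159), L-GMP-derived replicate 1 being the exception.

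Of the genes named in every case, 4 that did not meet the rule differed as well: Fos (-5.13), Csf1r (-3.22), Kit (-2.83) and Cebpa (1.28).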

How the results depend on the processing

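The number of members depended on the minimum fold. With 1.5-fold 513 probe sets were higher and 424 lower, and with 3-fold 61 and 110, against 164 and 193. The other alternatives kept both counts within 1.5 times, and no member turned to the opposite direction under any alternative run. With a floor at the 10th percentile 446 probe sets met the rule, including all 357, and at the 40th percentile 278. Quantile normalization gave 354, of which 351 were members before. Leaving out each array gave 349 to 401 members, 330 to 349 of them shared. Of the named differences from GMP 2635 moved by no more than the spread between arrays and 127 by more, with none reversed.

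Between the leukemic groups 112 members passed, 108 of which passed with the lower and 92 with the higher floor, 78 without a filter, 80 with only the leukemic arrays in the fit, 111 with array weights (166 passed in all) and 79 to 102 with single arrays left out. With a replicate block 99 members passed, 98 of the 112 among them. The counts of members higher and lower in culture stayed within 1.5 times of 42 and 70 in each of these fits. Of the named differences between the leukemic groups, 1181 values kept their side of the threshold, 64 lost it and 43 gained it, with none reversed. With the floor at the 40th percentile the calls of Arhgap6, Bex1, Klf4 (adjusted p = 0.106) and Ptger2 (0.110) ended, and with that at the 10th percentile that of Pbx3. With only the leukemic arrays in the fit those of Arhgap6, Bex1, Ccnd2, Hspa1b, Mxi1, Mycn, Pbx3, Sgip1 and Tspan13 (0.0523) ended, without a filter those of Arhgap6, Bex1, Ccnd2, Hspa1b, Mxi1, Mycn, Mylk and Sgip1, and without the intensity trend that of Arhgap6. With the replicate block those of Bex1, Hspa1b and Mxi1 ended. Dim signals limit these results: at 40 lower members no leukemic array reached the floor, and their distance from GMP and from each other is unresolved.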

Other observations

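Further genes with member probe sets, chosen after their values were seen, are given as signals with no explanation. Lin28a, an RNA-binding protein that blocks let-7 processing, read 31.2, 16.6 and 47.9 in GMP, 383, 228 and 238 in L-GMP and 119.7, 252 and 209.8 in L-GMP-derived cells. It was under the floor on all normal arrays and above it on all leukemic ones. Its other probe set read 32.3, 22 and 22.5 in GMP, 76.9, 41.3 and 66.6 in L-GMP and 37.1, 31.0 and 54.7 in L-GMP-derived cells and did not meet the rule. Ncam1 (CD56), a neural adhesion molecule, met the rule at 2 of 6 probe sets, and the brighter one read 261, 254 and 292 in GMP, 2183, 2011 and 1834 in L-GMP and 795, 1011 and 905 in L-GMP-derived cells. Its L-GMP signals lay above the culture-derived ones and both above GMP.

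Probe sets of 1 gene disagreed at several members. Tgm2 (tissue transglutaminase) met the rule at 2 of 6 probe sets, one of which read 17.4, 32.6 and 23.9 in GMP, 532, 152 and 90.4 in L-GMP and 204, 2263 and 2619 in L-GMP-derived cells. Both leukemic groups spanned a wide range there, while the probe set of highest mean signal read 268, 206 and 218 in GMP, 339, 288 and 234 in L-GMP and 259.7, 355 and 327 in L-GMP-derived cells and did not meet the rule. Fkbp9, a prolyl isomerase of the endoplasmic reticulum, met the rule at a probe set that read 1081, 1027 and 1143 in GMP, 21.1, -11.4 and 8.48 in L-GMP and 33.3, 5.65 and 22.2 in L-GMP-derived cells. Its other probe set read 209, 209 and 213 in GMP, 186, 202 and 159.9 in L-GMP and 211, 191 and 203 in L-GMP-derived cells, with nearly equal signals in the 3 groups. For Smo, the transducer of Hedgehog signals, the member probe set read 302, 358 and 353 in GMP and was under the floor on all leukemic arrays. The other read 173, 213 and 188 in GMP, 152, 166 and 131 in L-GMP and 150.5, 147 and 145 in L-GMP-derived cells.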
